A study of Rattus norvegicus with 119 samples.

Results

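The genes described here build the tight junction of the bladder lining in rats given pioglitazone or rosiglitazone. They are 9 genes: the claudins Cldn1, Cldn3, Cldn4, Cldn7 and Cldn8, occludin (Ocln), the scaffold proteins Tjp1 and Tjp3, and the junctional adhesion molecule F11r. They were chosen by gene symbol as named barrier genes of the urothelium, with earlier results of these data known. All 9 had a probe, and with a second probe for Tjp1 they make up 10 of the 30367 probes on the array. All 10 passed the filter on dim probes that left 22775 for testing, Cldn3 only narrowly.

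Sprague-Dawley rats of both sexes were dosed by mouth every day with 0.5% methylcellulose (vehicle), pioglitazone at 16 mg/kg/day (low dose) or 63 mg/kg/day (high dose), or rosiglitazone at 10 mg/kg/day, and the urothelium was scraped from the bladder 1 day after the last of 3, 28 or 90 days of dosing. The sources used here do not give the ages of the rats. Sex, treatment and dosing time form 24 groups of 4 or 5 arrays. The comparisons used 30 vehicle arrays, 28 with low-dose pioglitazone, 28 at the high dose and 30 with rosiglitazone; a further 3 arrays, failed by the submitters' own quality check, were not used.

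Tight junctions seal the space between neighbouring epithelial cells near their luminal side. Claudins span the membrane and form the paired strands that decide how leaky the seal is and to which ions, occludin joins them in the strands, and the scaffold proteins Tjp1 (known as zonula occludens protein ZO-1) and Tjp3 (ZO-3) tie the strands to actin under the membrane. In the bladder this seal sits between the umbrella cells that face the urine. Both drugs are thiazolidinediones, which activate the nuclear receptor PPAR-gamma.

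The genes lie on 7 chromosomes of the rat assembly GRCr8. Cldn3 (chr12:27345075-27346547) and Cldn4 (chr12:27388160-27389958) lie close together, and Cldn1 (chr11:87926376-87941533) and Cldn8 (chr11:41362081-41364330) share a chromosome at a distance. Cldn7 lies at chr10:55188670-55190871, Ocln at chr2:33391303-33442207, Tjp1 at chr1:128260330-128505018, Tjp3 at chr7:9078757-9097003 and F11r at chr13:86406229-86429819. The sources used here do not place the probes within exons.

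The start regions of Cldn7, Tjp3 and F11r are shown because the signals of Tjp3 and F11r followed that of Cldn7 from animal to animal. That of Cldn1 is shown because its signal followed another pattern. Each RefSeq window (GRCr8) runs 5′ to 3′ across 1 transcript start, which for Tjp3, Tjp1 and Ocln lies inside the gene's full span, and capitals mark CACCTG or its reverse complement CAGGTG, the letters known to be bound by the Snail and ZEB repressors of epithelial genes.
Cldn7, chr10:55188420-55188719, plus strand: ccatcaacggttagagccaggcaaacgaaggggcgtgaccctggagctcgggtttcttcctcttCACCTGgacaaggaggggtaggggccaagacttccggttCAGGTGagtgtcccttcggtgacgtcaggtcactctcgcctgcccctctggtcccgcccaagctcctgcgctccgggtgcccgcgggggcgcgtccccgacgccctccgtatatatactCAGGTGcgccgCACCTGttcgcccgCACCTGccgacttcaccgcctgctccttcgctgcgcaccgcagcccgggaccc
Tjp3, chr7:9084174-9084473, plus strand: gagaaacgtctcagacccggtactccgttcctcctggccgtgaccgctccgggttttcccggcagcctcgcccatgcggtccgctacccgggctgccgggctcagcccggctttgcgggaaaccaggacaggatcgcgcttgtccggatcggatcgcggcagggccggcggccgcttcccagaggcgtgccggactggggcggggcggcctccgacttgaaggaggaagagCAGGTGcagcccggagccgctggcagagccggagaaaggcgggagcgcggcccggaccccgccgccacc
F11r, chr13:86405979-86406278, plus strand: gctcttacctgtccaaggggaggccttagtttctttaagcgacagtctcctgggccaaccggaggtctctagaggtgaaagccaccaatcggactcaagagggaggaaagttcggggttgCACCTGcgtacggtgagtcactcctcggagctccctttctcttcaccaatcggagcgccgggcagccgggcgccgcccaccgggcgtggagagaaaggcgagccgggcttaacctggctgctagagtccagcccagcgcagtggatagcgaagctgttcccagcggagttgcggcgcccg
Cldn1, chr11:87926126-87926425, plus strand: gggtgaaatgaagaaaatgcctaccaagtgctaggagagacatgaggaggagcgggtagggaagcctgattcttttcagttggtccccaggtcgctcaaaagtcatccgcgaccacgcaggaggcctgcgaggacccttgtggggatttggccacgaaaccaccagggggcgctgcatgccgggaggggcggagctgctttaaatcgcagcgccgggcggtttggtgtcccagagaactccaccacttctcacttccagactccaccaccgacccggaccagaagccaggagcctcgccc
Searched on both strands, CACCTG stood in 18.8% of the 33469 start regions in the table and in 5 of the 8 that matched a gene described here. Cldn7 held 5 copies, a number that 4 start regions in the table reach, its own included. Ocln held 2 copies, Tjp3, F11r and Cldn3 held 1 each, and Cldn1, Cldn8 and Tjp1 held 0 in this window. The grainyhead-type letters AACCGGTT and the letters TATAAA, found in 0.173% and 14.2% of the start regions, were in 0 of the 8. The nuclear receptor half-site AGGTCA, found in 16.2%, was in 1 of the 8, that of Cldn7, where it did not overlap CACCTG. A match describes letters only and says nothing of binding.

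The authors' normalised signals are on the log2 scale, so a difference of 1 is a doubling. The levels of different probes are not comparable with each other. The tissue carried its defining markers: the mean of 6 umbrella cell genes (the uroplakins Upk1a, Upk1b, Upk2, Upk3a and Upk3b with Krt20) lay between 14.46 and 16.25 on every array. Markers of the tissue under the epithelium varied far more, the mean of 9 smooth muscle genes running from 6.75 to 15.77. Arrays correlated with the other arrays at a median of 0.980. In 9 of the 116 arrays this correlation was under 0.95, and in 2 of them under 0.90: high-dose pioglitazone female day 3 replicate 3 (0.817) and low-dose pioglitazone female day 28 replicate 5 (0.861). The 9 arrays comprise 2 with vehicle, 1 with low-dose pioglitazone, 2 at the high dose and 4 with rosiglitazone. Many of the values below are given with and without them, and leaving them out was chosen after the values were seen.

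**Figure D1:**
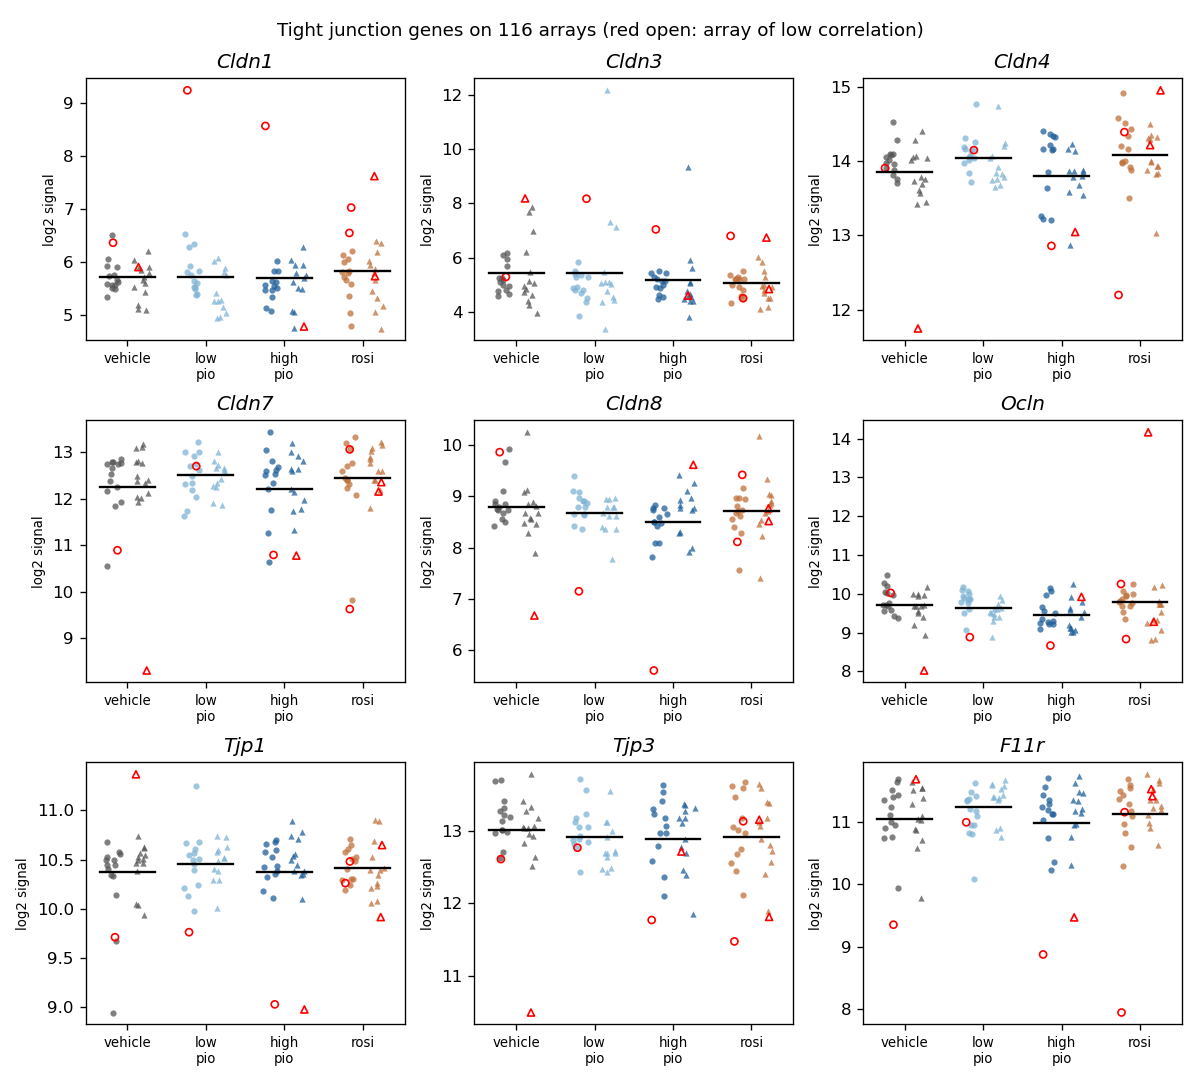
Log2 signal of the 9 tight junction genes on each of 116 arrays, by treatment (circles female, triangles male, black line the mean of the 6 sex and day group means). The groups overlap for every gene, and the arrays of correlation under 0.95 (red, open) hold many of the lowest and highest values.

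Averaged over the sexes and the 3 dosing times, 0 of the 10 tight junction probes passed the test with any treatment. Of all tested probes 2.35% and 4.96% were called at the low and the high dose of pioglitazone, and 5.05% with rosiglitazone. The test was limma's moderated test across all probes with Benjamini-Hochberg adjustment, and a probe was called at an adjusted p under 0.05. At an unadjusted p under 0.05 the counts were 0, 1 and 1 of 10 in the same order, against 17.1%, 17% and 20.3% of all probes, and limma with robust variances called 0 of 10 as well.

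Among the claudins that tighten epithelia, Cldn4 ran from 11.75 through a median of 13.93 to 14.52 on the vehicle arrays. Its range was 13.65, 14.05 (median) and 14.77 with low-dose pioglitazone, 12.86, 13.86 and 14.40 at the high dose, and 12.20, 14.08 and 14.95 with rosiglitazone. The 4 treatments overlapped over most of their range. The difference from vehicle was 0.19 (95% confidence interval -0.03 to 0.40), -0.06 (-0.28 to 0.15) and 0.22 (0.01 to 0.43) for the low dose, the high dose and rosiglitazone, the order kept below, and the limma adjusted p was 0.224 with rosiglitazone. The differences were positive in 6, 2 and 4 of the 6 combinations of sex and time. The Cldn4 differences at the low dose and with rosiglitazone were 0.12 (-0.06 to 0.29) and 0.16 (-0.01 to 0.33) without the 9 arrays of low correlation, so that no interval for Cldn4 left out 0.

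Cldn7, a claudin found along the whole side of epithelial cells, ran from 8.31 through 12.44 to 13.18 with vehicle. It ran from 11.62 through 12.59 to 13.21 with low-dose pioglitazone, from 10.64 through 12.52 to 13.42 with high-dose pioglitazone, and from 9.63 through 12.59 to 13.32 with rosiglitazone. Its medians lay close together while its low tails were long. The differences were 0.24 (-0.14 to 0.62), -0.04 (-0.42 to 0.34) and 0.19 (-0.18 to 0.57). They were 0.07 (-0.22 to 0.36), -0.11 (-0.40 to 0.19) and 0.14 (-0.16 to 0.43) without the 9 arrays, among them the vehicle male at 8.31.

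Cldn8, a barrier-forming claudin best known from the collecting duct of the kidney, ran from 6.68 through 8.75 to 10.24 with vehicle. It ran from 7.15 through 8.79 to 9.39 with low-dose pioglitazone, from 5.61 through 8.69 to 9.61 with high-dose pioglitazone and from 7.41 through 8.72 to 10.17 with rosiglitazone. The lowest of all its values was on a high-dose array. The high-dose difference of -0.29 (-0.56 to -0.02) had an unadjusted p of 0.0384 and a limma adjusted p of 0.253, and it was negative in 5 of 6 combinations. Without the 2 arrays of correlation under 0.90, of which the high-dose one holds the value 5.61, it was -0.17 (limma adjusted p = 0.478), and without the 9 it was -0.22 (-0.43 to -0.0045, limma adjusted p = 0.195). The Cldn8 differences with low-dose pioglitazone and rosiglitazone were -0.11 (-0.38 to 0.16) and -0.07 (-0.34 to 0.19).

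Cldn1, a sealing claudin best known from the skin barrier, and Cldn3, a sealing claudin of many simple epithelia, had dim probes. They stood at the 40.5 and 29.4 percentiles of mean signal. The Cldn3 mean of 5.275 lay just above the filter limit of 5.15, while its median lay between 4.97 and 5.14 in every treatment and vehicle. Its mean was raised by a few high arrays, so its passing of the filter rests on them. The Cldn1 differences were 0.00 (-0.29 to 0.28), -0.03 (-0.31 to 0.26) and 0.11 (-0.17 to 0.39). They were -0.12 (-0.26 to 0.03), -0.13 (-0.28 to 0.01) and -0.04 (-0.18 to 0.11) without the 9 arrays, with the sign for rosiglitazone turned. The Cldn3 differences were -0.02 (-0.61 to 0.57), -0.25 (-0.84 to 0.34) and -0.36 (-0.94 to 0.22), the widest intervals of the family, and -0.06, -0.27 and -0.39 without the 9 arrays. Both genes had single arrays far above the rest, described further on.

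Ocln, the first membrane protein of the tight junction to be known, ran from 8.02 through 9.71 to 10.48 with vehicle. It ran from 8.88 through 9.68 to 10.17 with low-dose pioglitazone, from 8.67 through 9.37 to 10.26 with high-dose pioglitazone, and from 8.82 through 9.75 to 14.16 with rosiglitazone. The high-dose median was the lowest of the 4, and the ranges overlapped. The differences at the low dose and with rosiglitazone were -0.07 (-0.37 to 0.22) and 0.08 (-0.20 to 0.37). The rosiglitazone difference turned to -0.12 (-0.28 to 0.05) without the 9 arrays, among them the one at 14.16. The high-dose difference was -0.25 (-0.54 to 0.05, limma adjusted p = 0.412), negative in 5 of 6 combinations. Without the 9 arrays of low correlation it was -0.28 (-0.45 to -0.11) and passed the test (limma adjusted p = 0.0195), with 10.6% of all tested probes called.

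The scaffold proteins and F11r, an immunoglobulin-type adhesion molecule that helps to set up junctions and polarity, stayed close to vehicle in the mean. Tjp1 differed by 0.08 (-0.10 to 0.26), 0.00 (-0.18 to 0.18) and 0.05 (-0.13 to 0.22), the narrowest intervals of the family. Its second probe gave 0.04, -0.05 and -0.05, of the other sign with rosiglitazone, and its deviations from the group means followed those of the first probe at r = 0.44 across the arrays and 0.23 without the 9. With the 9 arrays left out the second probe gave 0.12, 0.06 and 0.08, and the first 0.12, 0.12 and 0.07. Tjp3 differed by -0.10 (-0.35 to 0.15), -0.13 (-0.38 to 0.12) and -0.10 (-0.35 to 0.14), and F11r by 0.18 (-0.11 to 0.48), -0.06 (-0.36 to 0.23) and 0.08 (-0.21 to 0.36). Tjp3 gave -0.19, -0.18 and -0.12, and F11r 0.16, 0.04 and 0.15, without the 9 arrays. With high-dose pioglitazone 0 of the 9 genes had a difference above 0 and their median was -0.06, beside 0.00 over all tested probes. That count rests on the arrays of low correlation: without the 2 under 0.90 it was 2 of 9 (Tjp1 and F11r, median -0.10), and without the 9 it was again 2 of 9 (median -0.13). With low-dose pioglitazone 4 of 9 were above 0 (median 0.00, all probes 0.01) and with rosiglitazone 6 of 9 (median 0.08, all probes -0.01). Leaving out the 9 arrays gave 4 of 9 with each of these (medians -0.06 and -0.04). The comparisons share their vehicle arrays, and the genes share arrays and part of their spread. The doses of the 2 drugs differ, so their values stand side by side with no test between them.

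**Figure D2:**
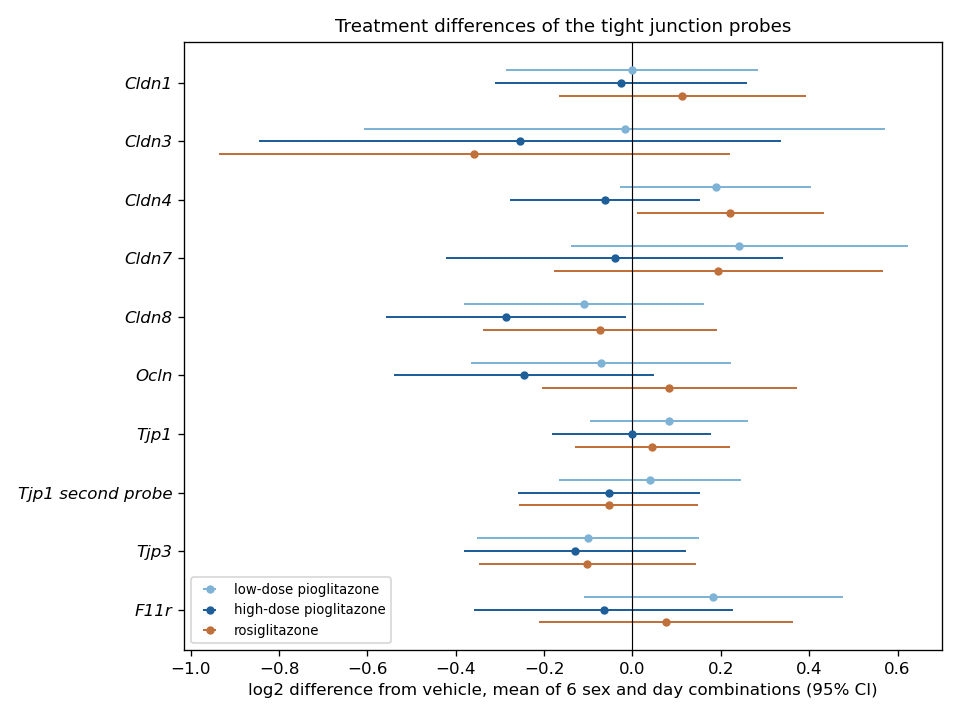
Difference of each of the 10 tight junction probes from vehicle (log2, points) with its 95% confidence interval (bars) for the 3 treatments, as the mean of 6 combinations of sex and day. The intervals of Cldn3 are the widest and those of Tjp1 the narrowest, and the intervals that leave out 0 are those of Cldn4 with rosiglitazone and Cldn8 with high-dose pioglitazone. All 116 arrays are in; without those of low correlation Cldn4 moves to 0.16 and Cldn8 to -0.22.

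The dose comparison within pioglitazone gave lower means at the high dose for all 9 genes, by 0.02 to 0.28 log2, with 0 of 10 probes called and 0% of all probes called. The largest differences were -0.28 for Cldn7 (-0.67 to 0.11) and -0.25 for Cldn4 (-0.47 to -0.03, unadjusted p = 0.0259, limma adjusted p = 0.727). At an unadjusted p under 0.05 there was 1 of 10, beside 6.78% of all probes, and limma with robust variances called 0. The high dose was lower for 7 of 9 genes without the 9 arrays, Tjp1 and Tjp3 lying at 0.00 and 0.01, and the differences of Cldn7 and Cldn4 were -0.18 and -0.19.

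Within single combinations of sex and day, 1 of 180 tests on the 10 probes passed, Cldn8 in high-dose females at day 3, where 6.04% of all probes were called. The 4 high-dose animals had 8.73, 5.61, 8.09 and 8.10, and the 5 vehicle animals 9.66, 9.86, 8.76, 8.42 and 8.73. The groups overlap, 1 treated animal lying level with the lower vehicle animals, and the value 5.61 stands far below the rest. The difference was -1.46 (-2.14 to -0.77, limma adjusted p = 0.00939). Without the high-dose arrays numbered 3, among them the array of lowest correlation, it was -0.78 and no longer passed (limma adjusted p = 0.595), and without both arrays of correlation under 0.90 the count of all probes called there went from 1376 to 1.

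In the same group the means of Cldn7, Cldn8, F11r, Tjp3 and the second Tjp1 probe were each the lowest of the 24 groups. Without the 2 arrays under 0.90 this held for Cldn7 and Tjp3, and no longer for Cldn8, F11r and the second Tjp1 probe. Without all 9 arrays under 0.95 it held for Cldn7, Tjp3, F11r (10.74) and the second Tjp1 probe (6.40). The Cldn8 mean was then next to the lowest, at 8.304 beside 8.301 in low-dose males at day 3. How many of all probes had their lowest mean in the high-dose females at day 3 was not counted. With all arrays, 4 of 10 probes had an unadjusted p under 0.05 in this group, beside 24.8% of all probes. Besides Cldn8, Cldn4 differed by -0.66 (limma adjusted p = 0.127), Ocln by -0.82 (0.163) and the second Tjp1 probe by -0.60 (0.149). Without the 2 arrays these differences were -0.47, -0.58 and -0.19, none of them at an unadjusted p under 0.05. With all 9 left out, 1 of them a vehicle female of day 3, those of Cldn4 and Ocln were -0.52 and -0.63 (unadjusted p = 0.0362 and 0.00894, limma adjusted p 0.334 and 0.209). The count of probes with an unadjusted p under 0.05 in this group was 2 of 10 without the 2 arrays and 3 of 10 without the 9. Of all probes 0.00439% and 0.386% were called there. The smooth muscle marker mean of these 4 arrays lay between 12.97 and 15.77, and that of vehicle females at day 3 between 8.89 and 14.21. The simple epithelial marker mean (Krt7, Krt8, Krt18, Krt19, Cdh1 and Epcam) averaged 14.93 there and 15.04 in the vehicle group. The part of tissue composition in the Cldn8 difference was not tested. In scraped tissue, fewer cells of a type and less RNA per cell cannot be told apart.

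The other 17 combinations gave 0 of 10 calls each. With low-dose pioglitazone the share of all probes called was 0.0132%, 0.11% and 0.0132% in females at 3, 28 and 90 days, and 0.00878%, 0.154% and 0.0922% in males. With high-dose pioglitazone it was 0.0351% and 0.988% in females at 28 and 90 days, and 0.0659%, 0.127% and 0.474% in males at 3, 28 and 90 days. With rosiglitazone it was 0.0527%, 0.263% and 1.6% in females and 0.0176%, 0.852% and 0.0307% in males. Over all 18 combinations 15 of the 180 tests had an unadjusted p under 0.05, which is 8.33%, beside 9.32% over all probes, so the family stood near the background. The count was 14 of 180 (7.78%) without the 9 arrays, beside 10.5% over all probes.

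Among those 15, the males given rosiglitazone for 3 days had 3. There Cldn4 differed by 0.88 (unadjusted p = 0.00114, limma adjusted p = 0.251), Cldn7 by 1.12 (0.427 adjusted) and Cldn3 by -1.46 (0.511 adjusted). In these males the vehicle group holds replicate 3, whose Cldn4 of 11.75 and Cldn7 of 8.31 were the lowest of all arrays for both genes. That replicate is 1 of the 9 arrays, and without them the differences were 0.48 for Cldn4, 0.31 for Cldn7 and -0.98 for Cldn3 (limma adjusted p 0.982 each). Females given rosiglitazone for 90 days had a Tjp3 difference of -0.76 (limma adjusted p = 0.215), which was -0.48 (limma adjusted p = 0.375) without the 9 arrays, replicate 1 of that group being one of them.

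**Figure D3:**
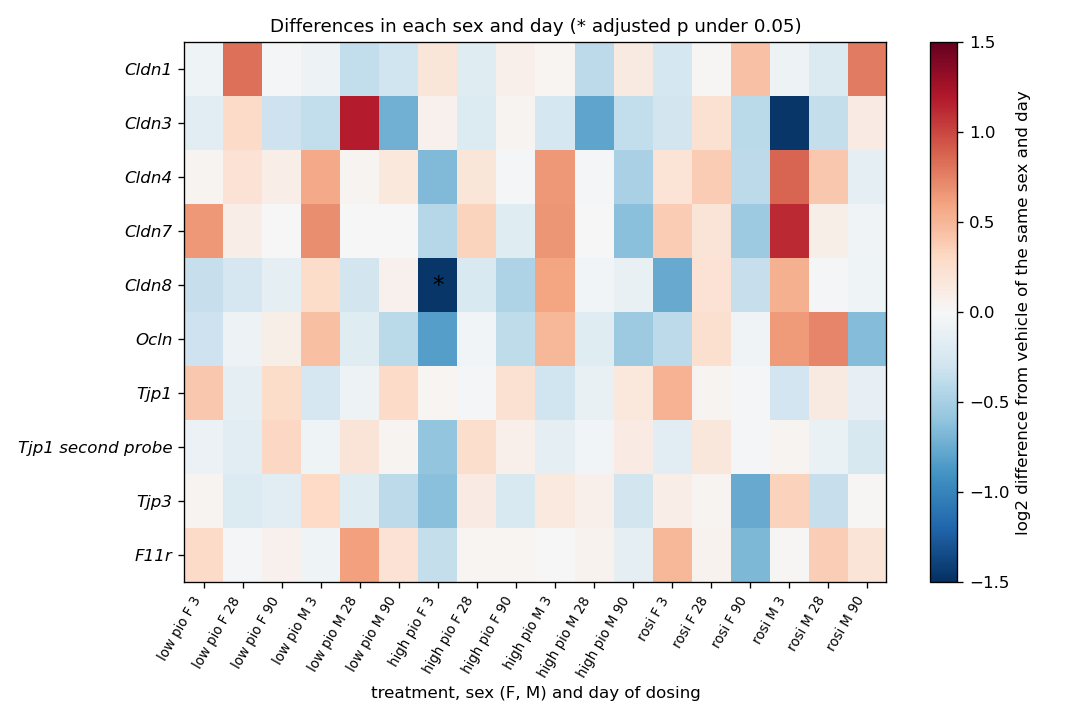
Log2 difference from vehicle of the same sex and day for the 10 probes (rows) in the 18 combinations of treatment, sex and day (columns), red higher and blue lower. The star marks the only call, Cldn8 in high-dose females at day 3 (-1.46). The column it stands in holds 4 of the 15 differences with an unadjusted p under 0.05. In that comparison 24.8% of all probes had such a p.

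The treatment effect was compared between the sexes and between the dosing times, with 0 of 10 probes called for any treatment. The sex difference was called for 0%, 0% and 0% of all probes with the low dose, the high dose and rosiglitazone, and the difference across times for 0%, 0.0132% and 0.0176%. At an unadjusted p under 0.05 there were 0, 1 and 0 of 10 for sex, beside 5.96%, 7.42% and 5.47% of all probes. For time there were 0, 0 and 2 of 10, beside 3.87%, 5.99% and 9.89%. Limma with robust variances called 0. For Cldn8 the high-dose effect in females minus that in males was -0.86 (-1.41 to -0.32, limma adjusted p = 0.454), and -0.43 (-0.85 to 0.00) without the 9 arrays. For Cldn4 the rosiglitazone effect at 90 days minus that at 3 days was -0.81 (-1.33 to -0.29), and its test across times gave a limma adjusted p of 0.38. That difference was -0.45 (-0.88 to -0.03) without the 9 arrays, where the test across times gave 0.693.

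Among vehicle animals, the females minus males difference was called for 0 of 10 probes and for 0.154% of all probes. There were 0 of 10 at an unadjusted p under 0.05, beside 9.9% of all probes. The smallest limma adjusted p was 0.518, for Cldn4, which was 0.29 higher in females (0.00 to 0.59). Cldn4 ran from 13.70 through 13.97 to 14.52 in 15 females and from 11.75 through 13.75 to 14.40 in 15 males. Cldn8 was 0.33 higher in females (-0.04 to 0.71) and Tjp1 0.24 lower (-0.48 to 0.01), neither called. The differences were 0.18 for Cldn4, 0.16 for Cldn8 and -0.16 for Tjp1 without the 9 arrays, the vehicle male at 11.75 among them.

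Across the 3 dosing times in vehicle animals, 0 of 10 probes were called with all arrays, where 4.83% of all probes were called. The probes with an unadjusted p under 0.05 were 2 of 10, Cldn1 and Cldn7, beside 20.2% of all probes. The family thus stood near the background. Age at collection and the number of vehicle doses cannot be told apart here.

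Every vehicle animal of day 3 had a higher Cldn1 signal than any vehicle animal of day 28 or 90. It ran from 5.89 through 5.97 to 6.50 in the 10 animals of day 3, from 5.11 through 5.53 to 5.80 in the 10 of day 28 and from 5.08 through 5.58 to 5.84 in the 10 of day 90. The 10 values of day 3 do not overlap the 20 later ones. Of all tested probes 0.0132% were separated in this way, 2 with higher and 1 with lower values at day 3. This separation was looked for after the Cldn1 values had been seen. With each of the 3 treatments 0 tight junction probes were separated so, beside 0.0439%, 0.0263% and 0.00878% of all tested probes. The differences from day 3 were -0.57 ± 0.24 at 28 days and -0.49 ± 0.24 at 90 days (SE), with a limma adjusted p of 0.235 for the test across times.

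The means of fibroblast, smooth muscle and adipocyte markers were also higher in the vehicle animals of day 3. Their ranges overlap the later ones, and no test was made. The leukocyte means at day 3 were 10.30 in females and 9.89 in males, against 10.15 to 10.68 later. The endothelial means were 7.80 and 7.27 against 6.97 to 7.89, so neither set lay above the later groups. The fibroblast marker mean was 10.71 and 10.83 in the females and males of day 3 and between 9.08 and 9.62 in the later groups, the smooth muscle mean 11.26 and 12.43 against 9.99 to 11.09, and the mean of 5 adipocyte markers 8.16 and 7.99 against 6.11 to 7.44. Within groups Cldn1 followed the fibroblast mean at r = 0.02 and the smooth muscle mean at 0.12. The part of these markers in the Cldn1 difference between days was not tested.

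That test takes its spread from all groups, and Cldn1 was far out on 2 treated arrays (9.23 and 8.56), the 2 of correlation under 0.90. Without them the vehicle values are the same, the standard errors were 0.16, and Cldn1 was called across times (limma adjusted p = 0.02, with 7.91% of all probes called). Without the 9 arrays of low correlation the differences were -0.55 ± 0.12 and -0.48 ± 0.12 (SE, limma adjusted p = 0.00583, with 3.86% of all probes called). In the treated animals the Cldn1 medians at 3, 28 and 90 days were 5.90, 5.38 and 5.42 with low-dose pioglitazone, 5.88, 5.09 and 5.66 at the high dose, and 5.91, 5.26 and 5.998 with rosiglitazone. The median was lower at 28 than at 3 days with each treatment, while at 90 days with rosiglitazone it was not. There the values ran from 5.72 to 7.62, and the test of the rosiglitazone effect across times gave a limma adjusted p of 0.503 for Cldn1.

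Cldn7 went the other way in vehicle animals. It ran from 8.31 through 12.08 to 12.79 at day 3, from 11.93 through 12.51 to 13.18 at day 28 and from 11.92 through 12.77 to 13.08 at day 90. The 3 ranges overlap, and the low tail lies at day 3. The differences from day 3 were 0.90 ± 0.33 and 0.96 ± 0.33 (SE, limma adjusted p = 0.0808). Without the 9 arrays of low correlation, 2 of them vehicle animals of day 3, they were 0.39 ± 0.26 and 0.45 ± 0.26 (limma adjusted p = 0.481). The simple epithelial marker mean was 15.04 and 15.08 in the vehicle females and males of day 3 and between 15.39 and 15.56 in the other 4 vehicle groups.

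Ordered by level, the 24 group means spanned between 0.74 log2 (Tjp1) and 1.97 log2 (Cldn3). With 24 means in so short a span a wide gap was unlikely beforehand, so its absence says little about the groups. No pair of neighbours in that order differed by more than the standard deviation within groups for any of the 10 probes. That deviation was 0.34 for Tjp1, 0.42 for Cldn4, 0.49 for Tjp3, 0.52 for Cldn8, 0.55 for Cldn1, 0.57 for F11r and Ocln, 0.74 for Cldn7 and 1.15 for Cldn3. Without the 9 arrays of low correlation it was 0.26 for Cldn1, 0.31 for Ocln and 1.10 for Cldn3, so that the spread of Cldn3 did not rest on those arrays.

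Several of the genes differed together among animals of the same group. After removal of the group means, Cldn7 followed Cldn4 (r = 0.75 across 116 arrays), Tjp3 (0.65) and F11r (0.58), and Cldn4 followed Tjp3 (0.52) and F11r (0.49). Without the 9 arrays of low correlation these values were 0.63, 0.44, 0.63, 0.35 and 0.42. F11r and Tjp3 followed each other less (0.34, and 0.32 without the 9). Some pairs with other members were of similar size: F11r with Tjp1 had 0.53, Cldn4 with Ocln 0.47 and Cldn4 with Cldn8 0.46. Those were 0.43, 0.33 and 0.52 without the 9 arrays. Other pairs went in opposite directions. Cldn1 with the second Tjp1 probe had -0.67, and -0.19 without the 9 arrays. Cldn8 with the first Tjp1 probe had -0.19, and -0.50 without the 9, while with the second probe it had 0.49 and 0.38. These correlations are descriptions: the points share the array, its normalisation and the tissue sample. Cldn1 and Cldn3 followed none of Cldn4, Cldn7, Tjp3 and F11r. Their values with these 4 lay between -0.26 and -0.01, and between -0.12 and 0.15 without the 9 arrays.

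Cldn7, Cldn4, F11r and Tjp3 also followed the simple epithelial markers. Against the mean of 6 simple epithelial markers, Cldn7 had r = 0.82, Cldn4 0.75, F11r 0.71 and Tjp3 0.62, while Ocln had 0.30, Cldn8 0.28, Cldn1 -0.14 and Cldn3 -0.11. Without the 9 arrays Cldn7 had 0.73, F11r 0.72, Cldn4 0.56, Tjp3 0.52 and Ocln 0.07. The first and second Tjp1 probes had 0.33 and 0.43, and 0.38 and 0.57 without the 9 arrays. Against the 6 umbrella cell markers, Tjp3 had 0.56, Cldn4 0.53, Cldn8 0.51, the second Tjp1 probe 0.49, Cldn7 0.48 and F11r 0.47. The first Tjp1 probe had 0.28 there, Ocln 0.06, Cldn3 -0.13 and Cldn1 -0.20. The umbrella cell value of Cldn8 was 0.36 without the 9 arrays. Against the 9 smooth muscle markers, F11r had -0.51, Cldn4 -0.48, Tjp3 -0.43 and Cldn7 -0.42, and against 9 fibroblast markers the same 4 lay between -0.57 and -0.53. Thus arrays rich in markers of the tissue under the epithelium were lower in these 4 genes, though not in these alone. The second Tjp1 probe had -0.48 with the smooth muscle mean and -0.38 with the fibroblast mean, and -0.60 and -0.58 without the 9 arrays. In the same order Cldn8 had -0.34 and -0.28, Ocln -0.30 and -0.36, and the first Tjp1 probe -0.26 and -0.19. Cldn3 and Cldn1 lay above 0 with both means, Cldn3 at 0.27 and 0.14 and Cldn1 at 0.12 and 0.02. The smooth muscle mean had medians of 10.85 with vehicle, 10.00 and 10.62 at the low and the high dose and 9.67 with rosiglitazone, and ranges that overlapped almost fully. Its part in the treatment differences was not tested.

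**Figure D4:**
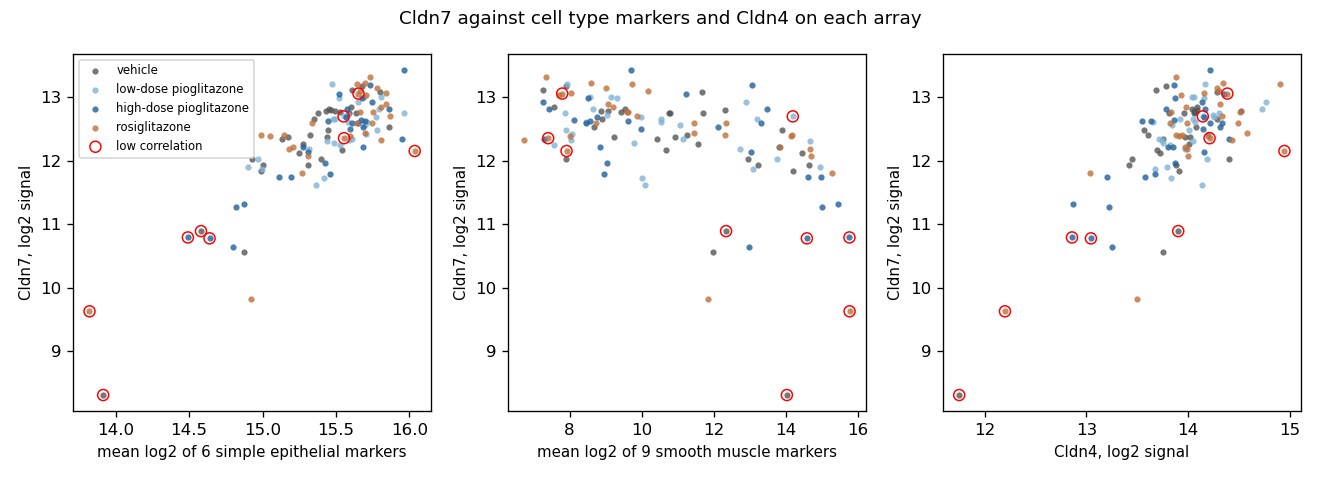
Cldn7 on each of 116 arrays (log2 signal) against the mean of 6 simple epithelial markers, the mean of 9 smooth muscle markers and Cldn4, coloured by treatment, with the 9 arrays of correlation under 0.95 ringed in red. The lowest Cldn7 values (8.31 to 10.89) sit on arrays with low epithelial markers, and smooth muscle means above 11.

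The named genes outside the family whose deviations were most like each member differed from gene to gene. Cldn7 was most like Krtcap3, the water channel gene Aqp3 and Tmc4 (r = 0.86, 0.85 and 0.85), and Cldn4 most like the tetraspanin gene Tspan13, the E-cadherin gene Cdh1, itself 1 of the 6 simple epithelial markers, and Cldn23 (0.85, 0.85 and 0.84). F11r was most like Lpcat3, a phospholipid acyltransferase, Pttg1ip and Grina (0.87, 0.86 and 0.85). Cldn8 was most like the transporter gene Slc22a23, the urea transporter gene Slc14a1 and Retreg1 (0.89, 0.88 and 0.85). Tjp1 was most like Sptbn1, a spectrin of the cell cortex, Epb4.1l2, a protein that links spectrin to the membrane, and Kctd6 (0.84, 0.82 and 0.80), and Tjp3 most like the retinoic acid binding protein gene Crabp2, the prohibitin gene Phb1 and Sgsm3 (0.77 each).

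Cldn3 had a sparse pattern of its own. Its median was 5.14 in 59 female and 4.97 in 57 male arrays, but 8 male and 2 female arrays lay above 7, 4 of the males being vehicle animals. The highest were 12.16 in a low-dose male of day 28 (replicate 3) and 9.33 in a high-dose male of day 3 (replicate 3). These arrays correlated with the others at 0.969 and 0.976.

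The named genes most like Cldn3 were P22k15, a cystatin-related gene, Sbp, the spermine-binding protein gene known from the rat prostate, and Klk1c2, a tissue kallikrein gene. Their deviations followed Cldn3 at r = 0.88, 0.83 and 0.81, and at 0.86, 0.87 and 0.87 without the 9 arrays of low correlation. Across all arrays Sbp had a median of 5.41 and P22k15 one of 5.03. On the array of highest Cldn3, Sbp read 17.91, Klk1c2 16.15 and P22k15 15.23. On all 8 high male arrays Sbp lay between 9.73 and 17.91. Some male arrays with Cldn3 under 7 also lay in that Sbp range. They were a vehicle male (Cldn3 4.84, Sbp 9.83), high-dose males (5.92 with 10.60 and 5.61 with 9.93) and a rosiglitazone male (6.02 with 12.19). On the 2 high female arrays, which are the 2 of correlation under 0.90, Sbp read 7.19 and 6.63 and Klk1c2 5.74 and 5.81, while P22k15 read 9.77 and 9.37. The part of tissue other than bladder in these arrays was not tested.

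**Figure D5:**
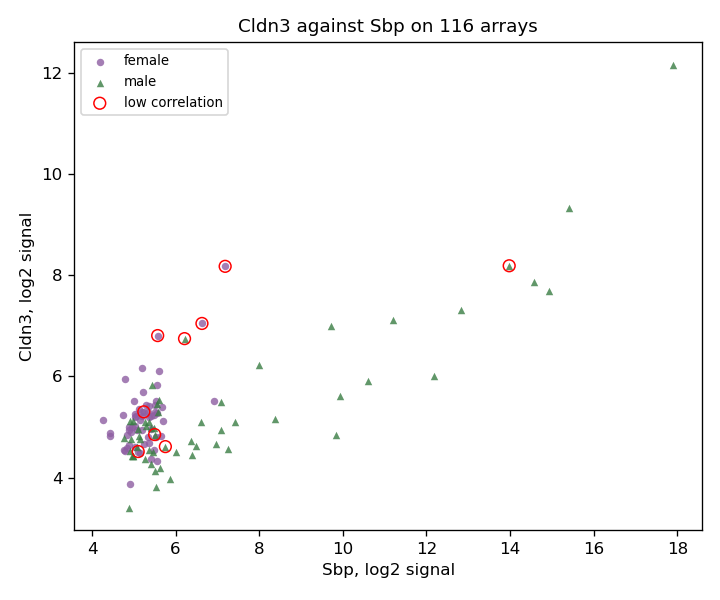
Cldn3 against Sbp on each of 116 arrays (log2 signal; circles female, triangles male, red rings the arrays of correlation under 0.95). The male arrays with Cldn3 above 7 carry Sbp values from 9.73 to 17.91, and the 2 female arrays above 7 carry 6.63 and 7.19. Some male arrays with Cldn3 under 7 lie in that male Sbp range as well.

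The highest value of Ocln and the 4 highest of Cldn1 stood on arrays of low correlation. Ocln read 14.16 in a rosiglitazone male of day 28 (replicate 3, correlation 0.936), and the next highest of all arrays was 10.48. Cldn4 was also highest on that array, at 14.95, and its smooth muscle mean was 7.92. The genes most like Ocln were Zfp280b, Ankrd39 and the spermine synthase gene Sms (r = 0.82, 0.81 and 0.81), which dropped to 0.65, 0.63 and 0.63 without the array farthest out. The 4 highest Cldn1 values were 9.23, 8.56, 7.62 and 7.02, on arrays of correlation 0.861, 0.817, 0.937 and 0.948, and the genes most like Cldn1 were Ndst1, Nckap5 and the hepcidin gene Hamp (0.87 each), at 0.42, 0.52 and 0.42 without the 9 arrays.

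One vehicle male of day 3 (replicate 3, correlation 0.930) separated the family. It had the lowest values of all arrays for Cldn4 (11.75), Cldn7 (8.31), Ocln (8.02) and Tjp3 (10.50), and the highest for Tjp1 (11.37), while F11r read 11.68, near the top of its range. Its umbrella cell mean was 15.10, its simple epithelial mean 13.91 and its smooth muscle mean 14.03. A rosiglitazone female of day 90 (replicate 1) had the lowest F11r of all arrays (7.95), with Cldn7 at 9.63 and a smooth muscle mean of 15.77.

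The other genes of the tight junction were read from 4 lists. Of 18 other claudins, 12 were tested, and with rosiglitazone Cldn5 fell while the rest did not pass. Cldn5, the claudin of blood vessels and itself one of the 9 endothelial markers, averaged 6.81 in the vehicle animals (SD 0.91, n = 30) and differed by -0.63, -0.43 and -0.71 with the low dose, the high dose and rosiglitazone (limma adjusted p 0.0964, 0.294 and 0.0307). The endothelial marker mean had medians of 7.46 with vehicle, 7.31 and 7.50 at the 2 doses of pioglitazone and 7.30 with rosiglitazone. Cldn23 differed by 0.37, 0.15 and 0.40, with a limma adjusted p of 0.0519 for rosiglitazone. At an unadjusted p under 0.05 there were 5, 1 and 4 of the 12, beside the shares of 17.1%, 17% and 20.3% over all probes, and the list's medians were -0.03, -0.03 and -0.01.

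Of 25 scaffold and polarity proteins 21 were tested. Pard3, a scaffold of the apical polarity complex, averaged 12.30 in the vehicle animals (SD 0.21, n = 30) and fell with all 3 treatments, by 0.20 ± 0.06, 0.19 ± 0.06 and 0.21 ± 0.05 log2 (SE, limma adjusted p 0.0327, 0.0281 and 0.00789), being negative in 6, 6 and 5 of 6 combinations. Mpdz, a scaffold with many PDZ domains, rose by 0.61 ± 0.17 with high-dose pioglitazone (limma adjusted p = 0.0213) and differed by 0.15 and 0.45 with the low dose and rosiglitazone. At an unadjusted p under 0.05 there were 3, 5 and 4 of the 21, beside 17.1%, 17% and 20.3% of all probes. The list's medians were -0.03, -0.08 and -0.02. The 3 Pard3 calls and the Mpdz call each ended in some fits that left out a replicate or included the arrays failing quality control, as did the Cldn5 call.

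Of 15 other membrane proteins of the junction 13 were tested, and 0 passed with any treatment. At an unadjusted p under 0.05 there were 1, 0 and 1. Of 13 transcription factors known to act on junction genes all were tested and 0 passed, with 2, 3 and 2 at an unadjusted p under 0.05. The shares over all probes, for both lists, were 17.1%, 17% and 20.3%. Snai1, the Snail repressor of epithelial genes, differed by -0.48, -0.35 and -0.49 (limma adjusted p 0.109, 0.274 and 0.0654), negative in 6, 4 and 6 of 6 combinations. Snai2 differed by -0.26, -0.20 and -0.23. Zeb1, Zeb2 and Twist1 did not share that direction: they differed by -0.21, 0.43 and 0.04, by -0.51, 0.14 and 0.05, and by 0.04, 0.48 and 0.23.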

How the data were processed

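RNA from scraped urothelium of 119 rats was hybridised to 1-colour Agilent arrays, 1 array per sample. The deposited table holds log2 values, normalised by the authors in a way that the sources used here do not describe; limma is named in the submitters' processing notes, with no role. Array medians lay between 6.40 and 6.63. Detection flags were not used here, and the number of arrays limits the precision. The members and gene lists were chosen with earlier results of these data known. Symbols come from the platform annotation, updated through RefSeq accessions (17245 probes matched, 2887 symbols changed). Of the probes 20369 carry 1 symbol, 0 several and 9998 none.

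Probes in the lowest 25% of mean signal (under 5.15) were left out. One mean per group was fitted to 116 arrays in limma 3.58.1 (R 4.3.3; lmFit, contrasts.fit, eBayes with a trend, 92 residual degrees of freedom), with the Benjamini-Hochberg adjustment of each contrast taken over 22775 probes. Time effects are F tests of the effects at 3, 28 and 90 days. The fit was tested on simulated data with known changes. Other genes were named where a listed gene was called in a treatment mean (up to 4 a list), and, per member, the 3 named genes of highest Pearson correlation of values with group means removed; list genes with no call and marker genes named beside them were chosen after their values were seen. Alternatives were other normalisations, filters, 1 probe per gene, the failing arrays included, a replicate block, robust variances and leaving out replicates or arrays. Nothing in the labels ties same-numbered samples to one another, and their deviations correlated at a mean of -0.01 (different numbers 0.01), so the fit has no block. Separate animals are the replicates, as the labels number them. Tables and plots used Python 3.11.15, pandas 2.3.3, numpy 2.4.6 and matplotlib 3.10.9.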

Additional observations from a re-analysis of the deposited data

Results flagged for a closer look

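Of 216 sets of 4 or 5 values (9 genes in 24 groups), 25 had a highest or lowest value set apart from the others by more than Dixon's 95% limit, where chance gives about 1 in 20. Of these, 14 were on arrays whose correlation with the others was under 0.95, 12 were high and 13 low.

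Cldn1 was high at 9.23 in low-dose females of day 28 (replicate 5) and 8.56 in high-dose females of day 3 (replicate 3). Cldn3 was high on 6 arrays: 6.10 (vehicle females day 28), 7.87 (vehicle males day 28), 12.16 (low-dose males day 28), 7.05 (high-dose females day 3), 9.33 (high-dose males day 3) and 6.81 (rosiglitazone females day 28). Cldn4 was low at 11.75 (vehicle males day 3) and 12.20 (rosiglitazone females day 90). Cldn7 was low at 8.31 (vehicle males day 3), 10.78 (high-dose males day 28) and 9.83 (rosiglitazone females day 3).

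Cldn8 was high at 9.91 (vehicle females day 90) and low at 7.15 (low-dose females day 28), 8.78 (low-dose males day 28), 7.81 (high-dose females day 90) and 7.41 (rosiglitazone males day 90). The 8.78 lies in a group of very small spread. F11r was low at 9.47 (high-dose males day 28), 7.95 (rosiglitazone females day 90) and 10.64 (rosiglitazone males day 90). Ocln was high at 9.92 (high-dose males day 90) and 14.16 (rosiglitazone males day 28). Tjp1 was high at 11.37 (vehicle males day 3) and low at 8.98 (high-dose males day 28).

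In 11 cases every treated animal lay above the vehicle mean in one group and below it in another. The difference was not tested for any of the 11, which were found among many such pairs. In 10 of them the vehicle mean of males at day 3 is used, and without replicate 3 of that group (correlation 0.930) 1 of the 11 was left, that of Cldn4 in females given rosiglitazone; this exclusion was chosen after seeing the data. For Cldn4 the high-dose effect in males at 90 days minus that at 3 days was -1.13, and the rosiglitazone effect in females at 90 minus 28 days was -0.77. For Cldn7 the high-dose effect in males at 90 minus 3 days was -1.28. For Cldn8 the rosiglitazone effect at day 3 in females minus males was -1.28. For Ocln the low-dose effect at day 3 in females minus males was -0.76, the low-dose effect in males was -0.64 at 28 minus 3 days and -0.85 at 90 minus 3 days, the high-dose effect at day 3 in females minus males was -1.32, and the rosiglitazone effect in males at 90 minus 3 days was -1.29. For Tjp1 the low-dose effect at day 3 in females minus males was 0.65, and in males at 90 minus 3 days it was 0.54.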

How the results depend on the processing

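Across 30 alternative settings, 0 called values changed direction. Of 1782 member values compared, 75 of uncalled differences changed sign, 3 calls were lost and 6 gained. The count of tests called among the 180 single comparisons was 1 as reported and 1 with the replicate block, which changed no other count of calls among the tight junction probes. It ranged from 0 to 2 over fits that left out 1 replicate number of 1 treatment: 0 without high-dose replicate 3, and 2 without high-dose replicate 1 (Cldn4 in high-dose females at day 3 at -0.96) and without rosiglitazone replicate 3 (Ocln in the same females, still at -0.82). It was 4 with the arrays failing quality control included, where Cldn4, Cldn7 and Tjp3 in high-dose females at day 3 were at -2.01, -2.001 and -1.67, and 0 without the arrays of correlation under 0.90 or under 0.95, where Cldn8 was at -0.78 and -0.59. Without the arrays under 0.95 the high-dose count was 1 (Ocln), and the vehicle count across days was 1 (Cldn1) without the arrays under either limit. These exclusions were added after seeing the data. Cldn5 with rosiglitazone did not pass without vehicle replicate 3 or 5, rosiglitazone replicate 1 or 3, or the arrays under 0.95 (-0.49), nor Mpdz with the high dose without vehicle replicate 1 or high-dose replicate 2 or 3. Pard3 did not pass with the low dose without vehicle replicate 1, 3 or 5 or low-dose replicates 1 to 4, nor with the high dose without vehicle replicate 1 or high-dose replicate 3 or 5. All 5 of these calls ended with the failing arrays included. Counts of all called probes went from 536, 1130 and 1150 (low dose, high dose, rosiglitazone) to 76, 366 and 180 with the failing arrays included and 1330, 2409 and 2132 without the arrays under 0.95. They went to 912 and 1933 (low dose, rosiglitazone) without those under 0.90, and from 168 to 788, 677 to 1388 and 726 to 1351 over the fits that left out a replicate, and with 1 probe per gene to 715 of 12713 for rosiglitazone. In high-dose females at day 3 the count of 1376 went to 6703 with the failing arrays, to 88 without the arrays under 0.95, and from 0 to 3673 over the fits that left out a replicate. The cause was not tested.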
